A study of Mus musculus with 10 samples.

Results

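The core circadian clock genes examined in the mouse aorta were Arntl (also called Bmal1), Clock, Npas2, Per1, Per2, Per3, Cry1, Cry2, Nr1d1 and Nr1d2, 10 of the 18193 genes that had a probe set of their own on the array. They were taken by gene symbol from the platform annotation, which gave 23 probe sets; no threshold on their values was used. The series profiled whole aorta of male C57BL/6 mice on 1-colour Affymetrix arrays, 5 from mice lacking Ptgds and 5 from wild type mice, all called biological replicates and all housed with alternating light and dark. Ptgds encodes lipocalin-type prostaglandin D synthase (L-PGDS), an enzyme that makes prostaglandin D2. Wild type replicate 2 was excluded per its label, so 9 arrays carried values: knockout replicates 1 to 5 and wild type replicates 1, 3, 4 and 5. The sources used here give no age, substrain, litter, scan batch, allele design or hour of dissection.

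In the molecular clock, ARNTL pairs with CLOCK or NPAS2 and switches on the Per and Cry genes through E-box sequences, and the PER and CRY proteins then repress that activity. A second loop runs through NR1D1 and NR1D2 (REV-ERB alpha and beta), which repress Arntl, Npas2 and Clock at ROR elements, while DBP and NFIL3 act with opposite sign at D-boxes. In mouse peripheral tissues, the vessel wall included, the mRNAs peak in a fixed order through the day: Arntl and Npas2 around the start of the light period, then Nr1d1 and Dbp, then Nr1d2 and Per3, then Per1 and Per2 toward dusk, and Cry1 and Nfil3 in the night.

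RefSeq windows of the assembly GRCm38.p6, from 250 bases before to 50 bases after each transcript start, were matched for 9 of the 10 genes (13 windows; Per2 had no entry). They were searched on both strands for an E-box (CACGTG), a D-box (TTANGTAA), the core of a ROR element (TAGGTCA or TGGGTCA) and the core of a cAMP response element (TGACGT); no letters were shared between matches. The 5 windows with a match are printed 5′ to 3′ on the gene's strand, in lower case with the matched letters in capitals, because they show which of these motifs lie next to a start; the other 8 windows, among them those of Npas2, Clock, Cry2, Nr1d1 and Nr1d2, held none of the letters searched. Arntl lies at chr7:113207261-113207560 on the plus strand, with a ROR element core. Per1 has an upstream window at chr11:69098699-69098998 with an E-box and a downstream window at chr11:69099902-69100201 with a cAMP response element core, both on the plus strand. Per3 lies at chr4:151044616-151044915 on the minus strand with 2 D-boxes, and Cry1 at chr10:85185005-85185304 on the minus strand with an E-box.
Arntl: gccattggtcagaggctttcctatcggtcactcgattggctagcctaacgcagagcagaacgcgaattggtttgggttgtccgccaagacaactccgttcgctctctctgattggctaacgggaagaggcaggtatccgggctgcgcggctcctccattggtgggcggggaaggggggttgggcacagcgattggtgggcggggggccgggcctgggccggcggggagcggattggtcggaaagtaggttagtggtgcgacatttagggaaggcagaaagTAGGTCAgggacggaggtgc
Per1 upstream window: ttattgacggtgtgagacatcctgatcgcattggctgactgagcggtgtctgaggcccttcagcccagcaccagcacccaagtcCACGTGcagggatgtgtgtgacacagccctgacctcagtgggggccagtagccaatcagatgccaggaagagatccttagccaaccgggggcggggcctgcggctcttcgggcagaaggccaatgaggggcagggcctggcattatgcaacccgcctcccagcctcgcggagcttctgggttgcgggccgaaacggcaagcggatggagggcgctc
Per1 downstream window: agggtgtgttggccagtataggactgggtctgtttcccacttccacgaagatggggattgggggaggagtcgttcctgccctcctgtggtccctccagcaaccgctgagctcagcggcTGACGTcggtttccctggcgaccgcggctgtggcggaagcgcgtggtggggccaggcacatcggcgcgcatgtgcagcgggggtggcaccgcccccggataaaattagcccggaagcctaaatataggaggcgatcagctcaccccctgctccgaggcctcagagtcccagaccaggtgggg
Per3: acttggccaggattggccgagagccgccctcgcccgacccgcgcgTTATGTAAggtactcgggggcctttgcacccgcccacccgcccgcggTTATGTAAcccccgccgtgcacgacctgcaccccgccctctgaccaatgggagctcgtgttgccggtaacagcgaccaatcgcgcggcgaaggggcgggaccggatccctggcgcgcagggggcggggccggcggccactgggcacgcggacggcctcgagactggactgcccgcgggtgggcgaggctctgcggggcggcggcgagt
Cry1: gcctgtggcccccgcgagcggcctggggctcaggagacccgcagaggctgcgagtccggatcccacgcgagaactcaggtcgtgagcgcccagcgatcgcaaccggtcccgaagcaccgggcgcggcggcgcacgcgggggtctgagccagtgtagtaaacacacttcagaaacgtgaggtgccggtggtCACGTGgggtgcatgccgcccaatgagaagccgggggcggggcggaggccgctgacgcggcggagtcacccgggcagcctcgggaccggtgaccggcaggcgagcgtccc

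Counted from the transcript start, the Arntl element began at position 31, the E-boxes of Per1 and Cry1 at -166 and -60, the Per1 cAMP response element core at -132, and the Per3 D-boxes at -205 and -158. Among 32544 distinct windows of mouse genes, 7.17% held the E-box, 2.29% the D-box, 6.48% a ROR element core and 7.55% the cAMP response element core. E-boxes stood in 2 of the 13 clock windows and each of the other 3 motifs in 1. These matches describe letters in the windows and do not show that a factor binds there.

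The comparison asks whether clock transcripts differed between the aortas of mice without and with L-PGDS. None of the 10 genes passed the threshold, but Nr1d1 and Npas2 lay 1.59-fold and 1.47-fold higher in the knockout mean and Cry1 lay 1.54-fold lower, and these 3 had the smallest p-values of the set. Arntl lay 1.48-fold higher with a wide spread, Per1, Per2 and Cry2 lay between 1.11-fold and 1.22-fold lower, and Clock, Per3 and Nr1d2 lay 1.01-fold to 1.05-fold higher, a sign that turned for Clock and Nr1d2 in some alternative settings. All values are on the scale of the deposited data, read as log2, and differences are knockout minus wild type. For each gene the brightest probe set on average stands for it, and differences carry the standard error (SE) of limma's moderated fit across all 14321 tested genes with Benjamini-Hochberg adjustment.

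Of the 10 clock genes, 0 had an adjusted p under 0.05, against 8 of the 14321 tested genes (0.0559%). At an unadjusted p under 0.05 there were 3 of 10 clock genes, against 19.9% of all tested genes, 2 of them higher and 1 lower in knockout. Groups that did not overlap were found for 0 of the 10, against 6.76% of all tested genes. The median difference of the clock genes was 0.03 and that of all tested genes 0.03, while the median size regardless of sign was 0.23 for the clock genes and 0.12 for all tested genes. Adjusted p-values of the 10 ranged between 0.131 and 0.885. In bulk tissue, fewer cells of a type and less RNA per cell cannot be told apart.

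**Figure D1:**
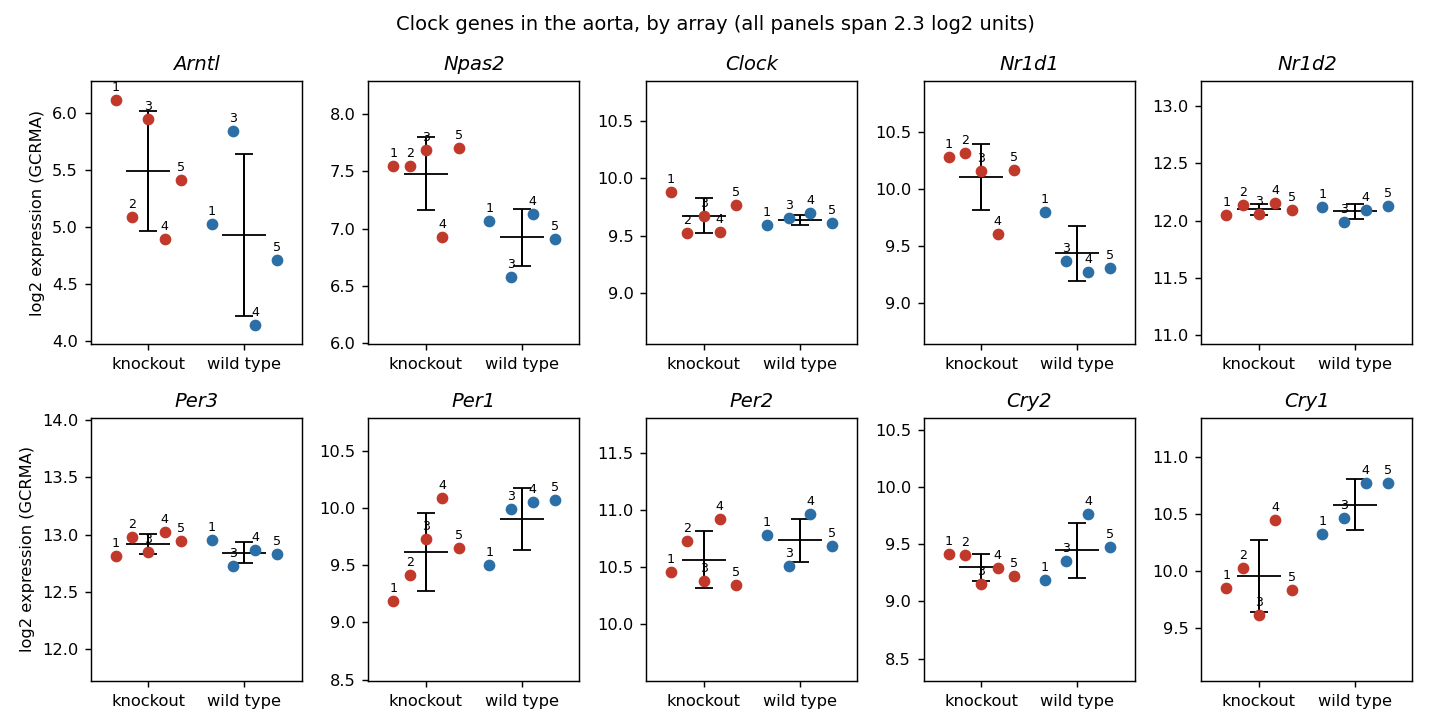
Log2 expression (GCRMA) of the 10 clock genes on each array, knockout in red at the left and wild type in blue at the right of each panel, with the replicate number beside each point; every panel spans the same number of log2 units. Bars are mean and SD (n = 5 knockout, n = 4 wild type). Knockout replicates 1, 2, 3 and 5 lie above every wild type array for Nr1d1 and Npas2 and below every wild type array for Cry1, while knockout replicate 4 lies among the wild type arrays for all 3.

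Among the activators of the loop, Npas2 and Arntl lay higher in the knockout mean, while Clock stayed close to wild type. Npas2, the partner of ARNTL that can stand in for CLOCK, had log2 values of 7.55, 7.55, 7.68, 6.93 and 7.70 on knockout replicates 1 to 5, against 7.07, 6.58, 7.13 and 6.91 on wild type replicates 1, 3, 4 and 5. The 4 highest arrays were knockout, and knockout replicate 4 lay below 2 of the 4 wild type arrays, so the groups overlapped. The means were 7.48 ± 0.32 (SD, n = 5) in knockout and 6.92 ± 0.25 (SD, n = 4) in wild type, a difference of 0.56 with an SE of 0.18 (95% interval 0.16 to 0.95; adjusted p = 0.154).

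Arntl, the essential activator of the loop, had log2 values of 6.11, 5.09, 5.94, 4.90 and 5.41 on the knockout arrays, against 5.03, 5.84, 4.14 and 4.71 on the wild type arrays, in the same replicate order. Wild type replicate 3 was the third highest array and knockout replicate 4 the third lowest, and the groups overlapped widely. Over the 9 arrays Arntl spanned 3.92-fold, the widest span of the 10 genes. Its probe set was also the dimmest of those that stand for the 10 genes, with values down to 4.14 and a floor for dim signals at 4. How much of the span is noise was not tested. The difference of Arntl was 0.56 with an SE of 0.36, and the 95% interval of -0.26 to 1.38 holds 0 (adjusted p = 0.414). Leaving out wild type replicate 3 gave 0.86, and leaving out wild type replicate 4 gave 0.30. Clock, the constitutive partner in most tissues, averaged 9.67 ± 0.15 (SD, n = 5) in knockout and 9.64 ± 0.05 (SD, n = 4) in wild type, a difference of 0.04 with an SE of 0.08.

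The nuclear receptors of the second loop differed from each other in this respect. Nr1d1 had log2 values of 10.28, 10.31, 10.15, 9.61 and 10.17 on knockout replicates 1 to 5, against 9.79, 9.37, 9.27 and 9.31 on wild type replicates 1, 3, 4 and 5. Again 4 knockout arrays were the highest, and knockout replicate 4 lay below wild type replicate 1, the highest of its group. Nr1d1 averaged 10.10 ± 0.29 (SD, n = 5) in knockout and 9.44 ± 0.24 (SD, n = 4) in wild type, a difference of 0.67 with an SE of 0.16 (95% interval 0.30 to 1.04; adjusted p = 0.131). Nr1d2, whose protein acts at the same elements, lay between 12.05 and 12.15 on the knockout arrays and between 11.99 and 12.12 on the wild type arrays. Its difference was 0.02 with an SE of 0.05 (adjusted p = 0.885), and the sign turned in 4 of 19 alternative settings.

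Among the repressors, the cryptochromes and periods lay lower or close to wild type by their brightest probe sets. Cry1, a strong repressor of the ARNTL and CLOCK pair, had log2 values of 9.85, 10.03, 9.61, 10.45 and 9.84 on knockout replicates 1 to 5, against 10.32, 10.46, 10.77 and 10.77 on wild type replicates 1, 3, 4 and 5. The 4 lowest arrays were knockout, and knockout replicate 4 lay above wild type replicate 1. Means were 9.96 ± 0.31 (SD, n = 5) for knockout and 10.58 ± 0.22 (SD, n = 4) for wild type, a difference of -0.62 with an SE of 0.17 (95% interval -1.01 to -0.24; adjusted p = 0.136). Cry2, its less rhythmic relative, averaged 9.30 ± 0.11 (SD, n = 5) in knockout and 9.45 ± 0.24 (SD, n = 4) in wild type; the groups overlapped, at an adjusted p of 0.491. Its difference of -0.15 became -0.23 when wild type replicate 1 was left out and -0.04 when wild type replicate 4 was.

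Per1, the period gene most open to acute induction, had log2 values of 9.19, 9.41, 9.73, 10.09 and 9.65 on the knockout arrays, against 9.50, 9.99, 10.06 and 10.07 on the wild type arrays. Knockout replicate 4 was the highest of all arrays, and wild type replicate 1 lay among the lower knockout arrays. The difference was -0.29 with an SE of 0.19 (95% interval -0.72 to 0.14; adjusted p = 0.417), and it was -0.18 without knockout replicate 1. Per2, the period gene that also responds to systemic cues, had log2 values of 10.45, 10.73, 10.38, 10.92 and 10.35 on the knockout arrays, against 10.78, 10.51, 10.96 and 10.68 on the wild type arrays. The 3 lowest arrays were knockout and the groups overlapped, with a difference of -0.17 and an SE of 0.14 (adjusted p = 0.519); it was -0.09 without wild type replicate 4 and -0.26 without knockout replicate 4. Per3, a period gene with a small part in rhythm itself, lay between 12.81 and 13.02 on the knockout arrays and between 12.72 and 12.95 on the wild type arrays (adjusted p = 0.560).

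**Figure D2:**
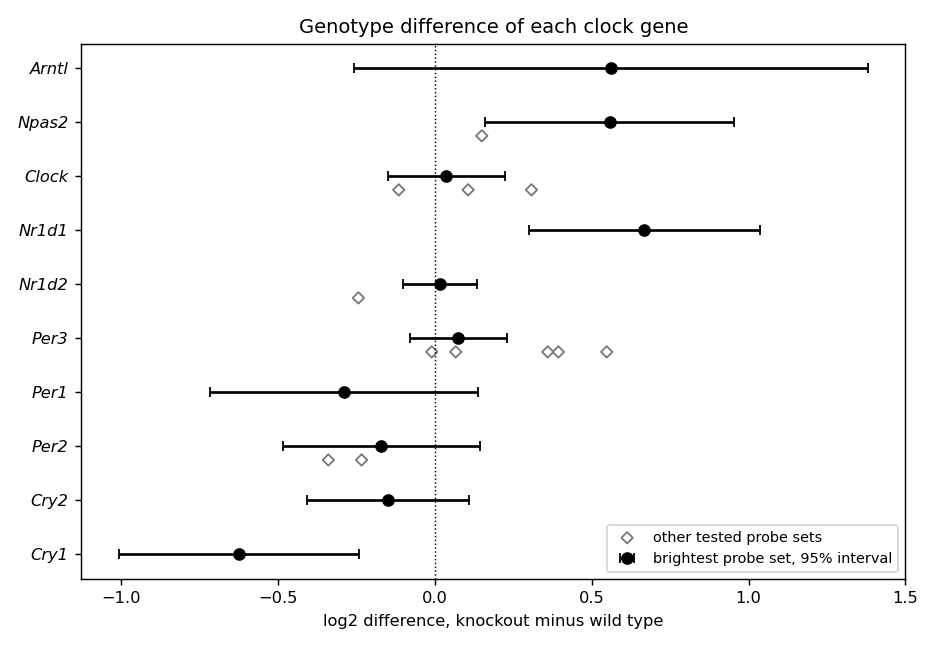
Difference in log2 expression, knockout minus wild type, of the 10 clock genes, ordered from top to bottom by the usual time of peak of their mRNA. Clock and Cry2, which vary little through the day in many tissues, stand beside Npas2 and Cry1, and their places mark no peak time. Filled circles are the probe set that represents the gene with its 95% interval, and open diamonds are the other tested probe sets; the intervals of Npas2, Nr1d1 and Cry1 leave out 0, and 0 of the 10 genes passed after adjustment.

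Genes with several probe sets did not always give 1 answer. Of the 22 member probe sets that passed the filter on dim signals, 0 had an adjusted p under 0.05 in the fit over 26504 probe sets, against 0.0792% of all tested probe sets, and 7 had an unadjusted p under 0.05, against 18.9%. The remaining probe set, 1457740_at of Arntl, lay between 2.50 and 2.70 on the 9 arrays, below the floor of 4. Clock 1435775_at had log2 values of 8.19, 7.98, 7.97, 7.95 and 8.24 on the knockout arrays, against 7.93, 7.61, 7.91 and 7.58 on the wild type arrays. Its groups did not overlap, though the gap between them was small. Such groups were found for 1 of the 22 member probe sets, against 1702 of all 26504 tested. The difference of Clock 1435775_at was 0.31 with an SE of 0.11 (adjusted p = 0.180), and the other Clock probe sets gave 0.04, 0.11 and -0.12.

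Per3 had 6 probe sets, and 5 of them gave a positive difference. Per3 1441445_at lay 0.55 higher in the knockout mean (SE 0.21, adjusted p = 0.217), Per3 1442243_at 0.39 higher and Per3 1458176_at 0.36 higher, while Per3 1460662_at and Per3 1421086_at differed by 0.07 and -0.01. The probe set that represents Per3 differed by 0.08. All 3 probe sets of Per2 lay lower in the knockout mean, by -0.17, -0.23 and -0.34, and the last had an adjusted p of 0.246. The second probe set of Npas2 differed by 0.15, and the second of Nr1d2 by -0.24, opposite in sign to the first.

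The pattern was carried by arrays rather than shared evenly within a genotype. Knockout replicates 1, 2, 3 and 5 were the 4 highest arrays for Nr1d1 and for Npas2 and the 4 lowest for Cry1. Knockout replicate 4 ranked sixth for Nr1d1, seventh for Npas2 and seventh for Arntl, and it was the highest array for Per1, Per3 and Nr1d2. Its Clock value, 9.53, lay slightly below every wild type array (lowest 9.59), as did that of knockout replicate 2 at 9.52. Its Ptgds value, 3.67, was the lowest of all 9 arrays, but it lay below the floor of 4, as did those of knockout replicates 1, 2 and 3. Wild type replicate 1 was the wild type array nearest to the knockout arrays for Nr1d1, Cry1 and Per1.

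Set in the usual order of the daily peaks, no difference passed the test. The genes that peak around the start of the light period, Arntl and Npas2, lay 0.56 and 0.56 higher in knockout, Nr1d1 lay 0.67 higher, Nr1d2 and Per3 differed by 0.02 and 0.08, and Per1, Per2 and Cry1 differed by -0.29, -0.17 and -0.62. Clock and Cry2, which vary little through the day in many tissues, differed by 0.04 and -0.15. These values are of the brightest probe sets. Those of Per3 and Nr1d2 lay at percentile 96.7 or above on every array and spanned only 1.23-fold and 1.12-fold. Whether their brightness limited the span was not tested. The other Per3 probe sets differed by 0.39, 0.55, 0.07, 0.36 and -0.01, and the other of Nr1d2 by -0.24. The intervals of Npas2, Nr1d1 and Cry1 left out 0, while those of the other 7 genes held it, and the sign of Nr1d2 turned in 4 of 19 settings. Arntl and Nr1d1, which follow each other in that order, both lay higher in the knockout mean. Knockout replicate 4 stood with the wild type arrays for Nr1d1, Npas2 and Cry1. Each array, called a biological replicate, was sampled once, and the labels give no hour of dissection. A difference of phase between genotypes, a difference in the hour of dissection and a difference in level at the same phase cannot be told apart.

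**Figure D3:**
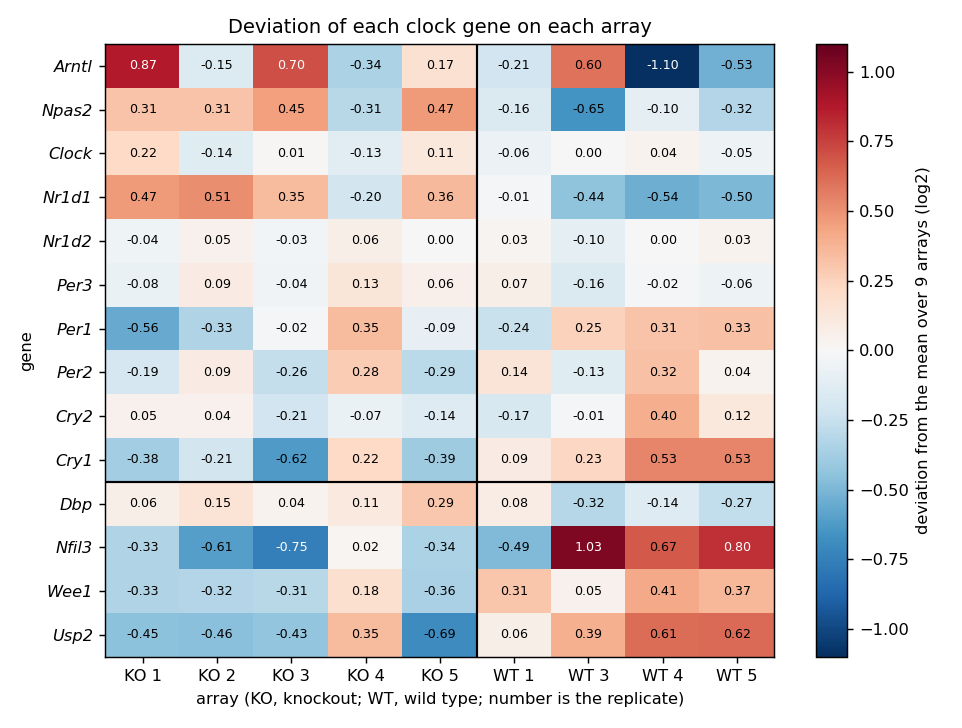
Deviation of each gene from its mean over the 9 arrays, in log2 units, with the 5 knockout arrays (KO) left of the 4 wild type arrays (WT) and the 10 clock genes above 4 other genes of the clock network. Red is above and blue below the mean; KO 1, KO 2, KO 3 and KO 5 are red for Nr1d1 and Npas2 and blue for Cry1, Wee1 and Usp2, and KO 4 has the opposite sign for these 5 genes.

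A summary of the loop gave the same picture of overlap. The mean deviation of Arntl, Npas2 and Clock minus that of Per1, Per2, Per3, Nr1d1 and Nr1d2 was 0.55, -0.07, 0.39, -0.38 and 0.24 on knockout replicates 1 to 5, against -0.14, 0.10, -0.40 and -0.27 on wild type replicates 1, 3, 4 and 5. The highest 3 of the arrays were knockout, but knockout replicate 4 lay among the lowest. The means were 0.14 ± 0.37 (SD, n = 5) in knockout and -0.18 ± 0.21 (SD, n = 4) in wild type, and the difference of 0.33 was about the size of the spread within groups. The mean of the activators lay 0.38 higher in knockout and that of the 5 repressors 0.06 higher, with Nr1d1 higher and Per1 and Per2 lower among them. Cry1 and Cry2 were left out of the score because their peaks lie between those of the other groups. The peak of Nr1d1, which was kept, also lies between those of Arntl and Per1, so the score depends on the choice of genes. With Cry1 and Cry2 counted, a choice made after the data were seen, the mean of the repressors differed by -0.07 instead and the score by 0.45. No test was made of this score, because its genes were chosen.

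**Figure D4:**
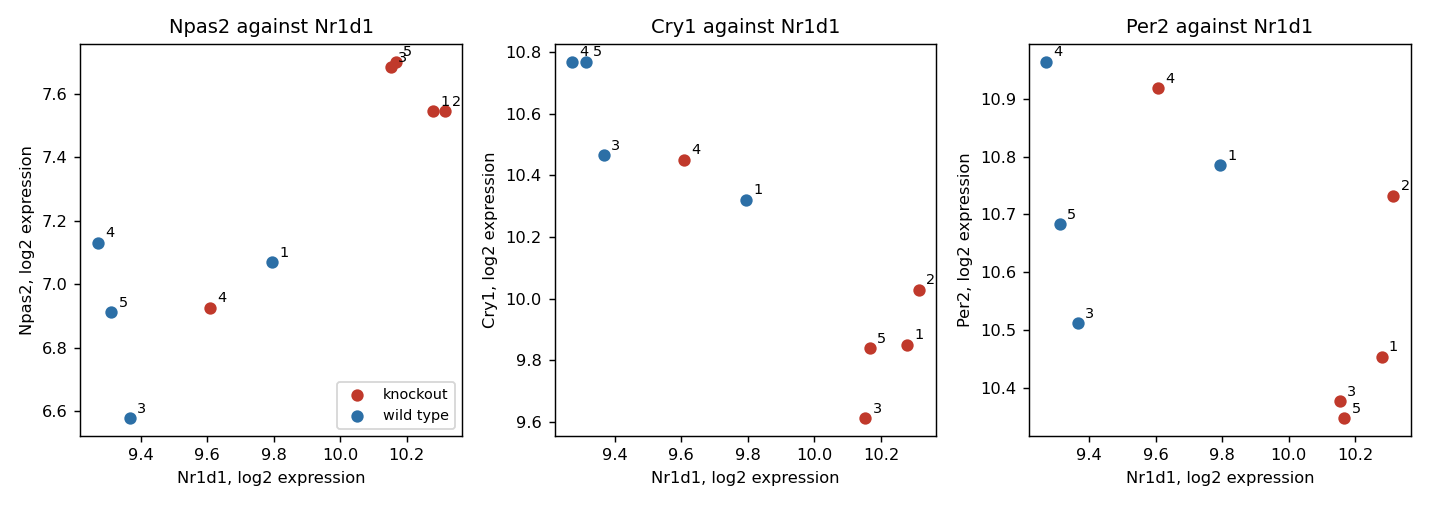
Log2 expression of Npas2, Cry1 and Per2 against that of Nr1d1 on the 9 arrays, knockout in red and wild type in blue, with the replicate number beside each point. Knockout replicates 1, 2, 3 and 5 form the right-hand group in each panel, and knockout replicate 4 lies beside wild type replicate 1 for Npas2 and Cry1.

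Across the 9 arrays r with Arntl was negative for Per1, Per2, Per3, Cry1, Cry2 and Nr1d2 and positive for Npas2, Clock and Nr1d1. With Per2 Pearson's r was -0.84 (exact permutation p = 0.0059, adjusted p = 0.0532 over 9 relations) and Spearman's rho was -0.78 (exact permutation p = 0.0172, adjusted p = 0.115). Without knockout replicate 1 and wild type replicate 4, the arrays farthest from the Arntl median, r was -0.77 over 7 arrays, and r of the deviations from the genotype means was -0.81. With Cry1 r was -0.75 (exact permutation p = 0.0216, adjusted p = 0.0974), rho was also -0.75 (exact permutation p = 0.0255, adjusted p = 0.115), and r was -0.62 without the same arrays and -0.72 within genotype. With Nr1d1, r was 0.58 (exact permutation p = 0.103, adjusted p = 0.185) and 0.26 without those arrays. None of the 9 relations passed 0.05 after adjustment, and all tests were two-sided. The number of arrays and the dim signal of Arntl limit what the relations can show.

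The genes whose values followed Arntl most closely over the 9 arrays were not clock genes. Dtx4, which encodes a ubiquitin ligase of the Deltex family, had the highest r at 0.94, followed by Mfsd6 and Arl2 at 0.88 each and Mtmr7 and Smap2 at 0.87 each. The lowest r belonged to Erc1 at -0.97, with Chordc1, Agbl4, Rab5a and Dcaf6 at -0.92 each. Agbl4 averaged 4.07 in knockout and 4.15 in wild type, next to the floor of 4. All these genes are the extremes picked from many genes over few arrays, and their r was not tested. Per2 stood 39th from the lowest and Cry1 152nd, and Nr1d1 stood 638th from the highest, among 14320 genes. These ranks rest on the dim signal of Arntl and describe 9 arrays that share 1 normalization. Of the 10 genes named here 0 is in the list of other clock genes.

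Beyond the core loop, 24 genes of the clock network were listed, of which 22 had a probe set and 20 were tested. None of the 20 passed, against 0.0559% of all genes, 6 lay higher and 14 lower in knockout (8122 and 6199 of all tested genes), their median difference was -0.05, and 4 had an unadjusted p under 0.05 (1 higher, 3 lower), against 19.9% of all tested genes. Wee1, a mitotic kinase gene driven through E-boxes, had log2 values of 9.81, 9.82, 9.83, 10.32 and 9.78 on the knockout arrays, against 10.44, 10.19, 10.55 and 10.50 on the wild type arrays (difference -0.51, SE 0.13, adjusted p = 0.131). Usp2, a deubiquitinase gene under clock control, had log2 values of 11.27, 11.26, 11.29, 12.07 and 11.03 on the knockout arrays, against 11.78, 12.11, 12.33 and 12.34 on the wild type arrays (difference -0.76, SE 0.21, adjusted p = 0.136). For both genes the 4 lowest arrays were knockout replicates 1, 2, 3 and 5, as for Cry1, and knockout replicate 4 lay among the wild type arrays.

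Among the D-box factors Dbp lay higher and Nfil3 lower in the knockout mean, but the others did not follow 1 direction. Tef and Hlf, relatives of Dbp, differed by 0.12 (adjusted p = 0.481) and -0.22 (adjusted p = 0.274). Dbp, the D-box activator, had log2 values of 13.29, 13.38, 13.26, 13.33 and 13.52 on the knockout arrays, against 13.31, 12.91, 13.08 and 12.96 on the wild type arrays (difference 0.29, SE 0.09, adjusted p = 0.155). All knockout arrays lay above 3 of the 4 wild type arrays, and wild type replicate 1 lay among the knockout arrays. Nfil3, the D-box repressor, which was picked out after its values were seen, had log2 values of 9.51, 9.24, 9.09, 9.86 and 9.50 on the knockout arrays, against 9.36, 10.88, 10.52 and 10.65 on the wild type arrays (difference -0.91, SE 0.30, adjusted p = 0.160). Here too wild type replicate 1 lay among the knockout arrays.

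One wild type array set the number of calls. Without wild type replicate 1, which leaves 5 knockout and 3 wild type arrays, 1051 of the 14321 genes passed (7.34%), and 1 of the 10 clock genes was among them. Nr1d1 then lay 0.79 higher in knockout (SE 0.16, adjusted p = 0.0276), and Cry1 differed by -0.71 (adjusted p = 0.0530). In the fit of probe sets without that array, Nr1d1 passed together with Per3 1441445_at, which lay 0.77 higher (adjusted p = 0.0253). Of the other clock genes Nfil3, Dbp and Usp2 passed, with differences of -1.24, 0.37 and -0.88. Without knockout replicate 4, 16 genes passed and 0 of them were clock genes, with differences of 0.79 for Nr1d1, 0.70 for Npas2 and -0.75 for Cry1.

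Per1 and Per2 also respond to signals other than the loop, among them glucocorticoids, cAMP and heat shock factors, so gene lists for these were set beside them. Of 15 tested glucocorticoid targets 0 passed, 0 lay higher and 15 lower in knockout, with a median difference of -0.47. An unadjusted p under 0.05 was found for 7, all of them lower. Of all 14321 tested genes 19.9% had such a p in either direction, and 1019 had it and lay lower. Fkbp5, a glucocorticoid-induced co-chaperone gene, differed by -1.44 (SE 0.28, adjusted p = 0.105) and Tsc22d3 by -0.74 (SE 0.20, adjusted p = 0.135). The list mean was 10.98, 10.90, 11.16, 11.53 and 10.98 on the knockout arrays, against 11.50, 11.61, 11.45 and 11.71 on the wild type arrays, with knockout replicate 4 once more inside the wild type range.

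Of 21 immediate early genes, which respond within minutes to many stimuli, 0 passed. In knockout 3 lay higher and 18 lower, against 8122 and 6199 of all tested genes. For 6, all of them lower, the unadjusted p was under 0.05, against 19.9% of all tested genes in either direction and 1019 of 14321 lower. The median difference of the list was -0.23. That median was -0.54 without wild type replicate 1, between -0.09 and -0.13 without wild type replicate 3 or 5 or knockout replicate 1 or 2, and -0.02 without the 2 arrays richest in neuron markers. Arc and Socs3 had the smallest p-values, with differences of -1.57 (adjusted p = 0.106) and -0.80 (adjusted p = 0.142). The list mean was 9.21, 9.33, 9.81, 9.81 and 9.95 on the knockout arrays, against 9.14, 10.39, 10.25 and 10.44 on the wild type arrays, and wild type replicate 1 was the lowest of all. Of 12 heat shock and temperature genes 0 passed, and 1 lay higher and 11 lower in knockout, with a median difference of -0.36. The higher one was Cirbp, counted in the list as a temperature gene, with a difference of 0.22 (adjusted p = 0.313). For 10 the unadjusted p was under 0.05, all of them lower. Of all 14321 tested genes 19.9% were so in either direction and 1019 were so and lower. Hspb1 and Dnaja1 led, at -0.54 (adjusted p = 0.0828) and -0.37 (adjusted p = 0.105). The list mean of the 12 genes lay between 11.71 and 11.80 on the knockout arrays. On the wild type arrays it lay between 11.85 and 12.30, without overlap. The part of these signals in the values of the clock genes was not tested.

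**Figure D5:**
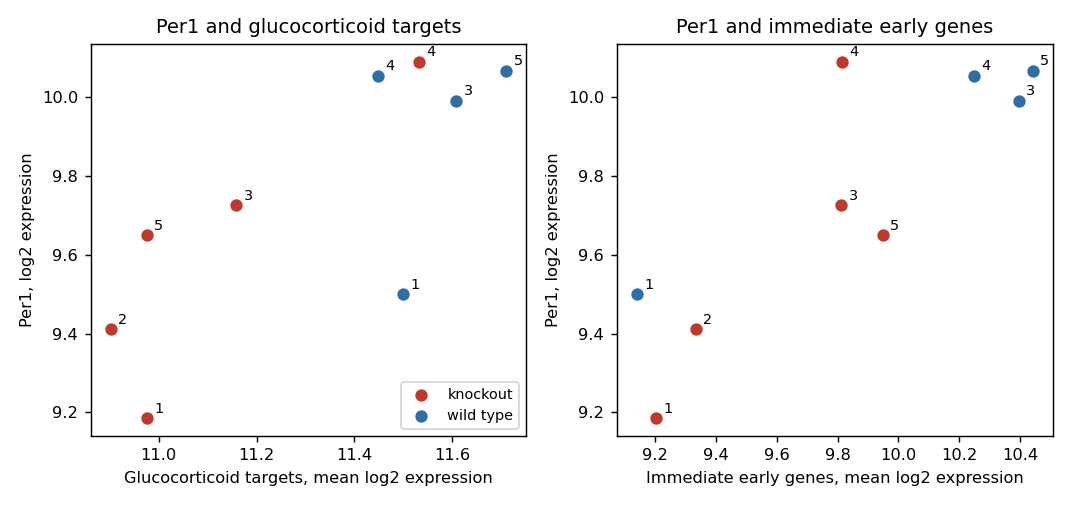
Log2 expression of Per1 against the mean log2 expression of 15 glucocorticoid targets (left) and of 21 immediate early genes (right) on the 9 arrays, knockout in red and wild type in blue, with the replicate number beside each point. The 4 arrays highest in Per1, knockout replicate 4 among them, had glucocorticoid target means of 11.45 or more; wild type replicate 1 had 11.50 with low Per1, and the lowest mean of the immediate early genes.

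Arrays were alike in overall signal, with medians of 5.88 to 5.97 and between 70.1% and 71.4% of probe sets above the floor. Wild type replicate 3 was the least like the rest, with a mean correlation with the other arrays of 0.983. That of every other array lay between 0.99 and 0.992, and wild type replicate 1 had 0.992. Ptgds matched the labels, at 3.86, 3.92, 3.76, 3.67 and 4.40 on the knockout arrays, against 9.11, 10.31, 8.79 and 8.68 on the wild type arrays (adjusted p = 0.00059). Means of 6 smooth muscle markers lay between 13.23 and 13.28 in knockout and between 13.01 and 13.21 in wild type, without overlap, and all 6 lay higher in knockout. Means of 5 brown adipocyte markers lay between 10.23 and 11.08 in knockout and between 10.90 and 11.74 in wild type, and all 5 lay lower in knockout; likewise the 5 endothelial markers, with means between 8.81 and 9.09 in knockout and between 8.99 and 9.44 in wild type. Neuron markers ranged between 4.48 and 9.01 in knockout and between 4.49 and 10.84 in wild type, highest on knockout replicate 1 and wild type replicate 3, and skeletal muscle markers stood at 9.71 on knockout replicate 3 and between 4.60 and 5.17 on the other arrays. Also lower in the knockout mean were all 5 adipocyte markers (median difference -0.41), all 5 macrophage markers (-0.33), all 7 neuron markers (-1.32) and 4 of 5 cardiomyocyte markers (-0.65), with 0 of them past the threshold. The part of tissue makeup in the clock values was not tested; without the 2 arrays richest in neuron markers, a setting chosen after the data were seen, 0 of the 10 clock genes passed.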

How the data were processed

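Total RNA of mouse aorta was measured on Affymetrix arrays. Per the submitters' processing notes the authors ran GCRMA, a method that subtracts background, sets arrays to a common distribution and summarises the probes of a set. The deposited numbers were read as log2 from their range; no source used here states the scale. Of 45101 probe sets, 34945 carried 1 gene symbol in the platform annotation; those over 4 on at least 4 arrays were tested, 26504 in all, and the brightest on average stood for the gene. Knockout was set against wild type using lmFit and eBayes of limma 3.58.1 (R 4.3.3) without covariates, with Benjamini-Hochberg adjustment over all genes or all probe sets and a threshold of 0.05. Relations with Arntl were tested by exact permutation of pairings. The procedure was tested on simulated data. The clock genes and all lists were chosen with earlier results of these data known. Genes were named by rule: all members, Ptgds, the 3 other clock genes with the smallest p and at most 2 genes per context list. The rule also took the 5 genes highest and the 5 lowest in correlation with Arntl (symbols of their own only). Nfil3, Tef, Hlf and Cirbp were named outside this rule after their values were seen. Replicate numbers are shared by 4 knockout and wild type arrays; correlations of their deviations were -0.36, -0.15, 0.06 and 0.21, so the numbers were not taken to pair mice. The number of arrays limits precision. The limma p-values set each mean difference against the spread between these arrays, moderated over all genes or all probe sets. Alternatives covered normalization, centring, filters, probe set rule, variance model, array weights, replicate block and single arrays left out.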

Additional observations from a re-analysis of the deposited data

Results flagged for a closer look

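In 10 of 108 groups of arrays examined, 1 array lay far from the rest of its group; chance flags about 1 in 20 groups. Knockout replicate 4 stood apart from the other knockout arrays for 4 clock-related genes: Npas2 at 6.93 (others 7.55 to 7.70), Nr1d1 at 9.61 (others 10.15 to 10.31), Wee1 at 10.32 (others 9.78 to 9.83) and Usp2 at 12.07 (others 11.03 to 11.29). Among wild type arrays, replicate 1 stood apart for Per1 at 9.50 (others 9.99 to 10.07) and for the mean of the immediate early genes at 9.14 (others 10.25 to 10.44). Wild type replicate 3 stood apart for Chordc1, a co-chaperone gene, at 12.03 (others 12.25 to 12.28), and wild type replicate 4 for the Arntl probe set 1457740_at at 2.69 (others 2.62), which is below the floor on every array. In marker lists, knockout replicate 1 had a mean of 9.01 for neuron markers (others 4.48 to 5.49), and knockout replicate 3 a mean of 9.71 for skeletal muscle markers (others 4.60 to 5.11).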

How the results depend on the processing

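Under alternatives that keep all arrays, 0 clock genes, 0 clock probe sets and 0 other clock genes passed. Leaving out single arrays gave 0 to 1 clock genes, 0 to 2 clock probe sets and 0 to 3 other clock genes, and the upper ends all came without wild type replicate 1. Over all tested genes the count was 8, with 19 at a floor of 6, 33 with trend and robust options, 73 with array weights, 86 at an adjusted p of 0.1, 2 to 1051 without single arrays and 3 without the 2 arrays richest in neuron markers. With the replicate number as a block (replicate block), 0 clock genes and 0 of all genes passed. Only 1 array correlated best with the array of its own number in the other genotype. Knockout replicate 2 had no such partner, and the number of matches to be met by chance was not worked out. Signs held in every setting run for the members except Clock and Nr1d2, but sizes moved: without single arrays Arntl ranged between 0.30 and 0.86, Per1 between -0.43 and -0.18, Per2 between -0.26 and -0.09, Cry2 between -0.23 and -0.04 and Per3 between 0.04 and 0.11. With the mean of their probe sets Npas2 differed by 0.35 and Per3 by 0.24, and Per1 by -0.15 without the neuron-rich arrays. Arntl was not tested at a floor of 6. Nr1d2 turned to -0.11 with the mean of its probe sets, to -0.00033 with array weights, to -0.00064 without the neuron-rich arrays, and ranged between -0.014 and 0.032 without single arrays. Clock turned to -0.0086 without the neuron-rich arrays and ranged between -0.015 and 0.075 without single arrays. The loop score differed by 0.22 to 0.46. Arntl with Per2 passed after adjustment with array medians at 0 (r = -0.91), without knockout replicate 5 (r = -0.91) and without wild type replicate 3 (r = -0.84); without the last, Arntl with Cry1 (r = -0.90) and with Nr1d1 (r = 0.83) passed too, by exact permutation. The relations' and the lists' alternatives were chosen after the data were seen. The causes were not tested. Clock transcripts sampled once per biological replicate limit what can be said of rhythm, and probe sets near the floor carry little signal.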
